A study of Mus musculus with 8 samples.

Results

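The levels of all genes were described in the 3 control libraries of a study of germ-free mouse colon colonized with Candida, a genus of yeasts that live in the gut. They are 3 of the 8 libraries in the series, chosen by the label control alone, and the whole table of 52636 gene identifiers was used. Bulk RNA sequencing was done on colon from C57BL/6 mice, labelled wild type and female, 6 weeks old, raised without microbes and housed in gnotobiotic isolators. The control libraries carry the same time label, 30 days, as colonized mice, which are not compared here. The labels do not say what the control mice were given by mouth, which stretch of the colon was taken, at what hour it was collected, or whether the libraries came from separate mice. The spread described below is between 3 libraries and may in part be technical. With a single group there was no contrast to test, and no p-value is given.

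The labels were checked first. Xist, the RNA that silences an X chromosome in cells with a pair of them, had 2 counts in control 1 and 0 in control 2 and control 3, out of 51188629 counts in all. Eif2s3y, a translation factor gene on the Y chromosome, stood at 42.3, 16.8 and 33.3 TPM in control 1, control 2 and control 3, in which order values are given throughout. The other Y-linked genes of the check, the helicase gene Ddx3y and the histone demethylase genes Kdm5d and Uty, were present in each library too, and the 4 genes together had 2204, 1193 and 1679 counts. These levels go against the label female in all 3 control libraries, and the other 5 libraries of the series looked the same, with 0 counts of Xist and 1415 to 1741 counts of the 4 Y-linked genes. The libraries are therefore described without a sex.

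The colon is a tube lined by a single layer of epithelium folded into crypts, with absorptive colonocytes that take up salt and water, goblet cells that secrete mucus, scattered hormone-secreting and chemosensory cells, and dividing cells towards the crypt base. Around it lie connective tissue with vessels, immune cells and lymphoid follicles, and then smooth muscle with the nerve cells of the enteric plexus. In mice without microbes the mucus, the lymphoid tissue and several antimicrobial products of the epithelium are known to differ from those of conventional mice. In bulk tissue, fewer cells of a type and less RNA per cell cannot be told apart.

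The control libraries held 16195376, 17320509 and 17672744 counts. Levels are given as TPM, an estimate of transcript abundance: counts divided by the length of a gene's exons and scaled so that each library sums to 1000000, which allows genes to be set side by side. At least 1 count was found for 24471 genes, and 15145 genes had a mean of at least 1 TPM, of which 13214 were protein-coding. A mean of at least 10 TPM was reached by 8382 genes, of at least 100 TPM by 1671 and of at least 1000 TPM by 134. The 10 most abundant genes of a library took 11.8%, 11.9% and 11.1% of its TPM, and the 100 most abundant took 32.0%, 34.3% and 31.3%. For a gene with 0 counts, counting error alone allows as many as 3, a floor of 0.185, 0.173 and 0.170 CPM (counts per 1000000 counts of a library).

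The most abundant transcript was mt-Co1, the mitochondrial gene of a cytochrome oxidase subunit, at 24499, 24347 and 28304 TPM. Lypd8, which encodes a secreted colonocyte protein that keeps motile bacteria away from the epithelium, came next at 19583, 23647 and 20632 TPM and was the highest nuclear gene in each library. Among the 20 highest nuclear protein-coding genes, products of the colonic lining led. Krt8, a keratin of simple epithelia, lay at 9003, 8837 and 8599 TPM, a spread of 2.300% (coefficient of variation, CV, the SD as a percentage of the mean). Zg16, a lectin of the mucus that binds bacterial walls, lay at 6518, 8692 and 5248 TPM, and Muc3, a membrane-bound mucin, at 6796, 7336 and 5665 TPM. Tff3, the trefoil peptide of goblet cells, stood at 4202, 6597 and 5357 TPM, and Clca1, a mucus-processing protease of the same cells, at 3318, 3664 and 1793 TPM. Lgals4, a galectin, and Krt19, another keratin, had CVs of 5.79% and 5.75%.

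Energy, muscle and secreted protein genes were among the remainder of these 20. Ckmt1, a mitochondrial creatine kinase, lay at 2876, 4182 and 3890.4 TPM and Cox6a1, a cytochrome oxidase subunit, at 6443, 7694 and 4779 TPM. Actg2, the actin of visceral smooth muscle, was the sole muscle gene among them, at 4829, 3538 and 2715 TPM. Mptx1, a mucosal pentraxin, stood at 4254, 6718 and 3413 TPM. Guca2a, which encodes the hormone guanylin that controls fluid secretion, had the widest range of the 20, at 14722, 7995 and 988 TPM, so that control 1 was far above control 3 with control 2 between them. Other members were the ribosomal genes Rplp0, Rplp1 and Rps15, the elongation factor genes Eef1a1 and Eef2, and the acute-phase gene Saa1.

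Of the 5 highest entries in the annotation's long non-coding classes, Neat1, the scaffold RNA of nuclear paraspeckles, stood at 221, 102 and 259.6 TPM, low in control 2, and Bvht, a long intergenic RNA, at 121, 48.5 and 96.3 TPM. The other 3 were Ifi30, Tmem134 and Tmem250-ps, at mean levels of 417, 103 and 93.1 TPM. Ifi30, which encodes a lysosomal thiol reductase, is a protein-coding gene by function. It is listed here only because its identifier carries a processed-transcript class in the annotation used. Tmem134 carries the same class, so its place here does not by itself make it a non-coding gene.

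A total of 46 gene lists with 635 genes, standing for cell types, tissues and cell-wide functions, ordered the levels by compartment. The median of the members' mean TPM was highest for the respiratory chain genes of mitochondrial DNA at 1704 TPM, then for ribosomal protein genes at 1158 TPM and general epithelial genes at 1011 TPM. Genes often used as references followed at 462 TPM and nuclear genes of the respiratory chain at 376 TPM. Among cell types, absorptive colonocytes came first at 266 TPM, ahead of smooth muscle at 198 TPM, goblet cells at 132 TPM, enteroendocrine cells at 81.00 TPM and fibroblasts at 77.1 TPM. White blood cell genes in general lay at 32.1 TPM, the plasma cell list at 17.4 TPM, blood vessel lining at 11.99 TPM, enteric neurons at 5.09 TPM and T cells at 1.89 TPM. Lists for mast cells, eosinophils, neutrophils, squamous epithelium, exocrine pancreas and skeletal muscle had medians under 1 TPM, as did those for cytotoxic and type 17 lymphocytes. A list's median depends on which genes were put on it, so these values order the lists and do not measure cell numbers.

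**Figure D1:**
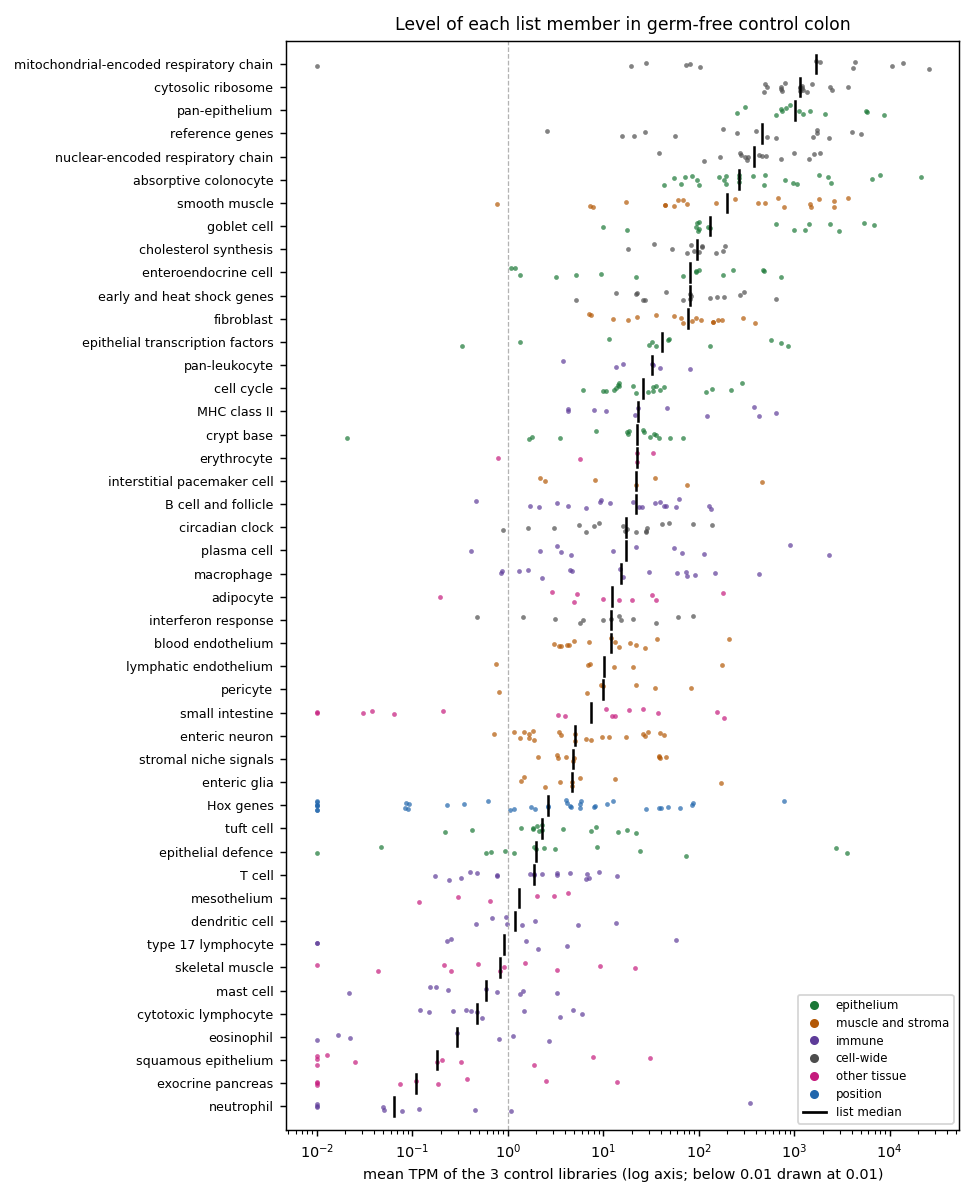
Mean TPM of the 3 control libraries (horizontal log axis) for each member of 46 gene lists, with lists sorted by their median (black bar) and coloured by compartment. The mitochondrial-encoded, ribosomal and general epithelial lists lie at the upper end, with medians from 1704 TPM downwards. The neutrophil, exocrine pancreas and squamous lists lie at the lower end. Lists of a compartment are spread out: the epithelial tuft cell and defence lists lie low, at 2.275 and 1.966 TPM.

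Between the 3 libraries, spread was measured as the ratio of the highest to the lowest TPM of a gene, over the 14426 genes with a mean of at least 1 CPM. The median ratio was 1.42 and the median CV 18.4%. A ratio of at least 2 was found for 2806 genes, 19.5% of those measured, a ratio of at least 4 for 652 and of at least 10 for 202. With a library left out, the share past 2-fold was 7.87% without control 1, 13.4% without control 2 and 10% without control 3. Counts below that leave out a library stand against these shares. Other counts of list members past 2-fold stand against the 19.5%, which mixes genes of unlike levels. The share depended on level: it was 46.9% for genes at 1 to 5 CPM, 7.30% at 100 to 1000 CPM and 12.9% for the 101 genes from 1000 CPM upwards. The median CV was 33.8% in the first of these ranges and 12.9% in the second, whereas counting error alone gave 15.9% and 1.86%. Beyond counting error, the common biological coefficient of variation (edgeR's estimate of the relative spread between samples) was 0.285.

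**Figure D2:**
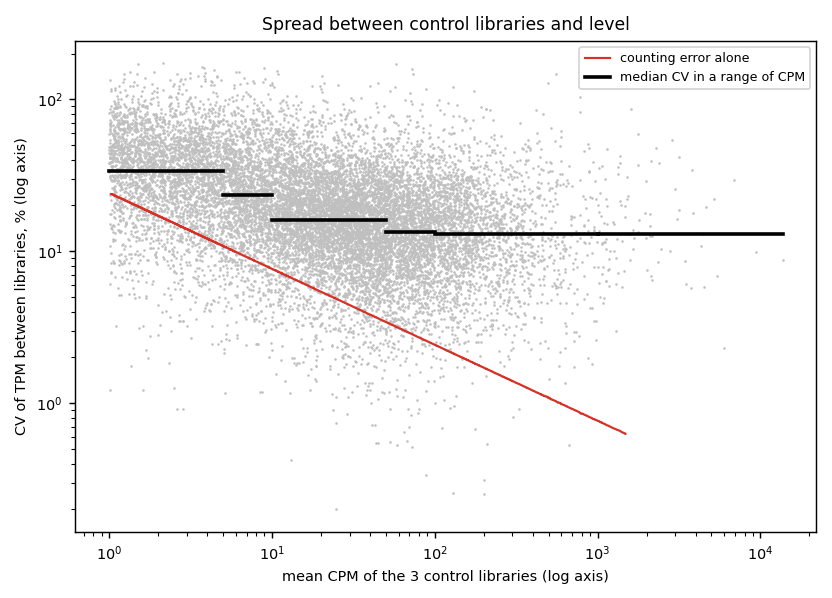
CV of TPM between the 3 control libraries (vertical log axis, percent) against mean CPM (horizontal log axis) for the 14426 genes measured, one point a gene. Black bars give the median CV in ranges of CPM, 33.8% at 1 to 5 CPM and 12.9% from 100 CPM upwards, and the red line gives what counting error alone would produce.

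Control 1 and control 3 were the farthest apart. Spearman's rho over the 14426 genes, which are not independent replicates, was 0.966 for control 1 and control 2, 0.942 for control 1 and control 3 and 0.976 for control 2 and control 3. No pair agreed within sampling noise, as a library deposited again would, and the 3 were counted as 3 libraries. Of the 2806 genes past 2-fold, control 2 lay between the others in 1556, or 55.5%. Control 1 was at least 2-fold above control 2 for 7.17% of the genes measured and above control 3 for 6.74%. Control 3 was at least 2-fold above control 1 for 6.59% and above control 2 for 6.36%, and control 2 above control 1 for 3.15% and above control 3 for 1.72%. With control 1 left out, 1124 of 14284 genes were past 2-fold, against 1957 of 14578 without control 2 and 1437 of 14302 without control 3. The TPM scale itself placed the median gene 0.22 higher on the log2 scale in control 1 than in control 2, and 0.16 lower in control 2 than in control 3. With TMM factors, edgeR's scaling that removes such a shift, these differences were -0.01 and 0.03. Control 1 was the highest library for 49.1% of the genes past 2-fold on the TPM scale and 43.4% with TMM, and control 2 was the lowest for 39.6% and 24.7%. Directions given below held for the same lists under TMM unless stated otherwise.

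**Figure D3:**
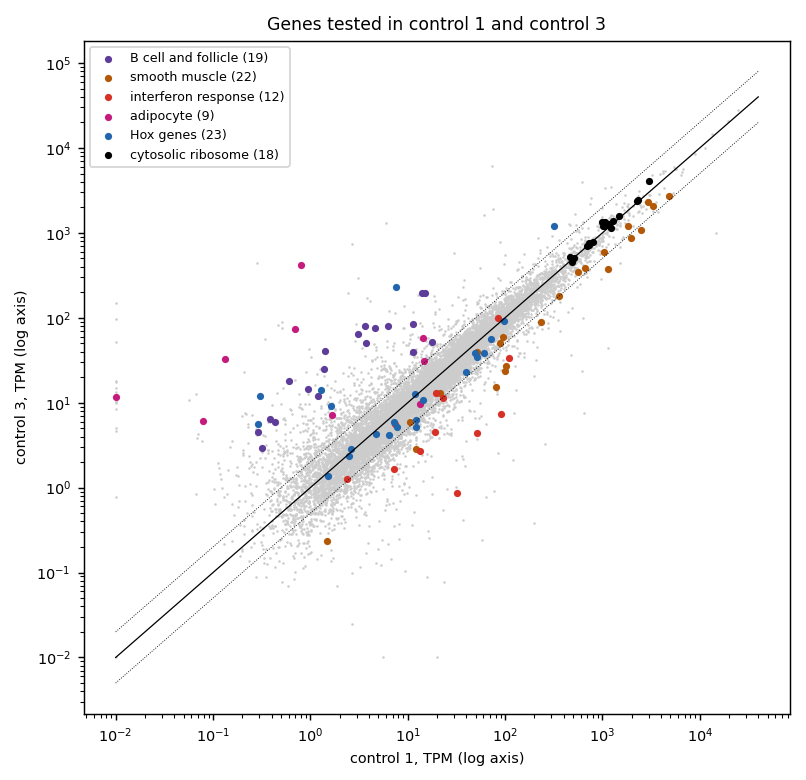
TPM in control 1 (horizontal log axis) and control 3 (vertical log axis) for the 14426 genes measured (grey), with members of 6 lists coloured and the number measured in brackets. The solid line marks equal levels and dotted lines a 2-fold difference; values under 0.01 TPM are drawn at 0.01. B cell and most adipocyte members lie above the upper dotted line, interferon and smooth muscle members mostly below the solid line, and ribosomal genes along it.

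Genes of the epithelium as a whole varied little in sum. The 14 general epithelial genes summed to 32181, 30288 and 29294 TPM, with 2 of them past 2-fold. Epcam, the epithelial adhesion molecule, lay at 2364, 2078 and 1824 TPM and Cdh1, the cadherin of its junctions, at 776, 772 and 698 TPM. The exceptions were Krt20, a keratin of mature surface cells, at 1515, 740.3 and 436 TPM, and Cdx2, a homeobox regulator of intestinal identity, at 481, 231 and 36.7 TPM. Its relative Cdx1 was ordered the other way, at 983, 1474 and 1959 TPM. Of 11 epithelial regulators measured for spread, 3 were past 2-fold, of which 2 were lowest in control 1 and 1 in control 3. Among the most abundant, Hnf4a lay at 551, 591 and 572 TPM, Klf4 at 894, 860.0 and 821 TPM and Elf3 at 700.4, 769 and 692 TPM. Isx, an intestinal homeobox repressor of vitamin A uptake, was the widest at 76.7, 19.2 and 0.924 TPM, high in control 1 and close to 1 TPM in control 3. Pdx1, a regulator of the upper gut, was past 2-fold at 0.848, 1.95 and 1.23 TPM. Gata4, also of the upper gut, had a mean of 0.331 TPM.

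Absorptive colonocyte genes were abundant and uneven. All 26 were above 1 TPM in the mean, their median ratio was 2.12 against 1.42 over all genes, and 14 of 26 were past 2-fold. Of these 14, 10 were highest in control 1, 3 in control 3 and 1 in control 2, where the shares of all genes measured that were past 2-fold with that library highest were 9.55%, 8.95% and 0.957%. Slc9a3, the sodium-proton exchanger of the apical membrane, stood at 650.0, 141 and 7.59 TPM, a ratio of 85.7 with a 95% counting interval of 75.6 to 97.4. Fabp2, a fatty acid carrier, stood at 621, 156 and 23.5 TPM, and Emp1, a membrane protein, at 198, 39.97 and 20.6 TPM. These 3 were high in control 1 and low in control 3.

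Not all colonocyte genes were ordered in that way. Car1, a cytosolic carbonic anhydrase, stood at 623, 847 and 3956 TPM and was highest in control 3. The β and γ subunits of the epithelial sodium channel, Scnn1b and Scnn1g, stood at 38.4, 53.7 and 125 TPM and 13.3, 29.96 and 86.2 TPM, again highest in control 3, whereas the α subunit, Scnn1a, was level at 199, 203 and 178 TPM. Car4, the membrane-bound carbonic anhydrase, lay at 2625, 2637 and 2051 TPM and Aqp8, a water channel, at 597, 943 and 854 TPM. Slc26a3, the chloride-bicarbonate exchanger, was just past 2-fold and highest in control 1, at 679.8, 439 and 337 TPM. Slc5a8 and Slc16a1, carriers of short-chain fatty acids, lay at 51.8, 68.4 and 76.8 TPM and 103, 87.6 and 111 TPM. With control 1 left out, 7 colonocyte genes were past 2-fold, and the same number without control 3.

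Goblet cell genes summed to 21386, 26319 and 20183 TPM, with 5 of 17 past 2-fold. Muc2, the gel-forming mucin, stood at 1914, 1021 and 949 TPM, Fcgbp, a protein that links it, at 1119, 1744 and 1397 TPM, and Agr2, the isomerase that folds it, at 1341, 875 and 738 TPM. Atoh1 and Spdef, the regulators of secretory and goblet fate, lay at 107, 100.3 and 92.4 TPM and 113, 87.02 and 81.6 TPM. Klk1, a kallikrein protease, was highest in control 3 at 1225, 2428 and 3491 TPM. Ang4, an antimicrobial ribonuclease, stood at 259, 113 and 3.27 TPM, a ratio of 79.2 (95% counting interval 47.00 to 145), and Retnlb, the goblet cell resistin-like protein, at 25.2, 3.73 and 0.953 TPM. Both were highest in control 1 and lowest in control 3. Goblet members past 2-fold numbered 2 without control 1 and 2 without control 3.

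Of the hormone-secreting cells, Pyy, which encodes peptide YY, was the highest at 643, 775 and 759 TPM, followed by Insl5 at 496, 568 and 359 TPM and Gcg, the glucagon-like peptide precursor, at 276, 183 and 76.6 TPM. The granins Chga and Chgb were level at 91.3, 106 and 104 TPM and 98.8, 97.9 and 87.5 TPM, and Sst, somatostatin, at 71.3, 75.5 and 61.2 TPM. Cck, cholecystokinin, had 118, 95 and 2 counts, or 16.5, 11.8 and 0.254 TPM, a ratio of 65.1 with a counting interval of 17.6 to 544. Reg4, a secreted lectin of these and other secretory crypt cells, stood at 87.8, 593 and 776 TPM, low in control 1. Of 14 genes measured for spread, 5 were past 2-fold; without control 1 there were 2, and without control 3 there was 1.

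Tuft cells, the chemosensory cells of the epithelium, gave low levels that were mostly highest in control 1. Ptgs1, a prostaglandin synthase, stood at 34.99, 17.3 and 13.9 TPM, Trpm5, the taste channel, at 12.8, 7.83 and 1.995 TPM, Dclk1, a kinase used to mark the cells, at 3.64, 2.29 and 0.964 TPM, and their regulator Pou2f3 at 2.96, 2.05 and 0.537 TPM. Of 11 measured, 8 were past 2-fold and 10 were highest in control 1, where 49.4% of all genes measured had their highest library at any ratio; with TMM it was 9 of 11 against 35.6%. Without control 3, 2 were past 2-fold. Il25, the cytokine these cells release, had a mean of 0.419 TPM.

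The crypt base list, by contrast, had 1 of 15 past 2-fold on the TPM scale and 3 with TMM. Lrig1, a growth factor inhibitor of stem cells, lay at 72.98, 62.8 and 71.6 TPM, Ascl2, the stem cell regulator, at 22.8, 40.4 and 39.7 TPM, and Axin2, a target of Wnt signals, at 28.7, 27.01 and 22.5 TPM. Lgr5, the R-spondin receptor of stem cells, was low at 1.48, 1.48 and 2.39 TPM, and Olfm4, a stem cell marker of the small intestine, had 1 count in control 1 and 0 in the others. Prom1, a membrane protein of crypt cells, was the member past 2-fold, at 57.3, 16.6 and 7.07 TPM. Cell division genes were highest in control 1 in 19 of 20 cases, against 49.4% of all genes. With TMM it was 17 of 20, against 35.6%. On the TPM scale 9 of 20 were past 2-fold. Mki67, which marks dividing cells, stood at 23.2, 10.6 and 9.97 TPM, Top2a, the topoisomerase of mitosis, at 22.3, 9.76 and 8.44 TPM, and Cdk1, the mitotic kinase, at 17.2, 7.23 and 5.74 TPM. All 9 were lowest in control 3, against 5.84% of all genes measured. Without control 1 none of the 20 was past 2-fold, and without control 3, 6 were.

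Defence genes of the epithelium split into a few at high levels and many near 0. Saa1, serum amyloid A, lay at 3842, 3981 and 2906 TPM and Pigr, the receptor that carries IgA across the epithelium, at 2307, 3287 and 2699.9 TPM. Fut2, which adds fucose to surface sugars, was the most even at 73.3, 75.03 and 72.6 TPM. The hydrogen peroxide-producing oxidase Duox2 stood at 31.04, 18.95 and 22.2 TPM and its maturation factor Duoxa2 at 6.78, 10.4 and 8.54 TPM. Reg3g, an antibacterial lectin that microbes are known to induce, had 9, 8 and 5 counts, Reg3b had 0, 1 and 0 and Reg3a none, so that all 3 were at or close to the floor. Saa3 had 27, 1 and 1 counts, Ido1, an enzyme of tryptophan breakdown, stood at 5.81, 0.799 and 0.545 TPM, and both were highest in control 1. Angptl4, a lipase inhibitor that microbes are known to lower, stood at 3.67, 1.602 and 4.03 TPM, Lcn2, a siderophore-binding protein, at 1.67, 1.05 and 2.97 TPM, and Nos2, the inducible nitric oxide synthase, at 0.498, 1.32 and 1.01 TPM. Saa2 and Pla2g2a, an antibacterial phospholipase, had means of 1.16 and 1.97 TPM. Of the 9 members measured for spread, 4 were past 2-fold (Ido1, Lcn2, Nos2 and Angptl4), with 2 left without control 1 and 2 without control 2.

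Most smooth muscle genes were ordered alike in the 3 libraries. On the TPM scale 21 of 22 were lowest in control 3 and 1 in control 2, against 28.2% and 49.0% of all genes. The 22 members summed to 21897, 16208 and 12509.7 TPM. Control 1 was the highest library for all 22, against 49.4% of all genes, or for 21 of 22 with TMM, against 35.6%. Of the 22, 9 were past 2-fold, all highest in control 1, which stands against 9.55% of all genes measured. The actins Acta2 and Actg2 and the light chain Myl9 led, Acta2 at 2962, 2628 and 2318 TPM and Myl9 at 3289.7, 2426 and 2080.0 TPM. Des, desmin, stood at 2468, 1969 and 1088 TPM, Cnn1, calponin, at 1961, 1525 and 866 TPM, and Myh11, the smooth muscle heavy chain, at 1131, 531 and 374 TPM. Wide ratios were seen in Synpo2 at 81.4, 36.3 and 15.2 TPM, Cald1, caldesmon, at 101, 42.3 and 23.5 TPM, and Myocd, the coactivator of the muscle programme, at 1.48, 0.605 and 0.232 TPM. Mylk, the kinase of the light chain, stood at 236, 131 and 89.97 TPM, and Synm, synemin, at 103, 51.02 and 26.95 TPM. Other members, Csrp1, Tpm1, Tpm2, Flna, Smtn, Lmod1, Pgm5, Hspb6 and Kcnmb1, had ratios from 1.31 to 1.94. Tagln, transgelin, stood at only 10.5, 7.34 and 5.92 TPM, but 67.9% of its exon bases are shared with other annotated genes, and reads there may not have been assigned to it. Without control 1, 2 of 21 members were past 2-fold, and without control 3, 5 of 22.

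Genes of the nerve cells within the muscle wall were mostly highest in control 1 too. Of 21 enteric neuron genes measured, 20 were highest there, against 49.4% of all genes, and 17 with TMM, against 35.6%. On the TPM scale 15 were lowest in control 3 and 5 in control 2, against 28.2% and 49.0% of all genes. The 7 past 2-fold were all highest in control 1 and lowest in control 3. Uchl1, a ubiquitin hydrolase of neurons, lay at 46.5, 41.2 and 43.1 TPM, Nos1, the neuronal nitric oxide synthase, at 9.35, 3.65 and 2.33 TPM, and Vip, a relaxing neuropeptide, at 12.5, 10.8 and 10.8 TPM. Without control 1 none was past 2-fold. Of the 7 interstitial pacemaker genes, 5 were past 2-fold, 4 highest in control 1 and 1 in control 3, and without control 1 there was 1. Kit, the receptor that marks the cells, stood at 35.5, 17.4 and 13.9 TPM and Edn3, an endothelin, at 17.2, 4.96 and 2.34 TPM, whereas Thbs4, a thrombospondin, was highest in control 3 at 285, 508 and 584 TPM and made up most of the list's sum of 441, 649 and 725 TPM. Ano1, their chloride channel, was not past 2-fold, at 68.6, 72.2 and 87.9 TPM. Enteric glia genes, such as Sox10 at 15.1, 10.8 and 14.3 TPM, had 3 of 9 past 2-fold, 2 highest in control 1 and 1 in control 3, and none without control 1.

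Fibroblast and blood vessel genes had few members past 2-fold. Fibroblast genes had 2 of 18 past 2-fold and a median ratio of 1.49. Col1a1 and Col3a1, the fibrillar collagens, stood at 128, 106 and 189 TPM and 158, 109.7 and 160.0 TPM, and Sparc, a collagen-binding protein, at 303, 273 and 293 TPM. Dpep1, a dipeptidase, was the widest at 631, 437 and 98.7 TPM, low in control 3, and without control 3 no fibroblast gene was past 2-fold. None of the 15 genes of blood vessel lining was past 2-fold: Pecam1, an adhesion molecule, lay at 19.1, 22.8 and 24.6 TPM, Cdh5, the cadherin of its junctions, at 11.97, 12.3 and 15.8 TPM, and Plvap, a diaphragm protein of fenestrated vessels, at 161, 193 and 274 TPM. Pericyte genes, of the cells around small vessels, summed to 256, 129.7 and 113 TPM, with 2 of 6 past 2-fold and both highest in control 1: Rgs5, a regulator of G protein signals, at 156, 57.2 and 34.9 TPM and Cspg4, a proteoglycan, at 13.7, 9.53 and 6.36 TPM. Without control 1 neither was. Of the 10 genes listed for stromal signals to crypts, 3 were past 2-fold. They were the BMP inhibitor Grem1 at 46.1, 46.5 and 22.5 TPM, Wnt5a at 6.31, 3.05 and 2.97 TPM and the R-spondin Rspo1 at 3.68, 1.34 and 1.28 TPM. Grem1 was low in control 3 alone, while in Wnt5a and Rspo1 control 2 and control 3 lay close together below control 1. Bmp4 lay at 44.6, 40.9 and 51.02 TPM and Rspo3 at 3.61, 2.52 and 3.97 TPM.

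B cell genes were low in control 1. Cd79a, a signalling chain of the B cell receptor, stood at 14.1, 189.9 and 196 TPM and Ighm, the IgM heavy chain, at 14.9, 169 and 197 TPM. Pax5, the regulator of the B cell lineage, stood at 0.434, 6.48 and 5.92 TPM and Fcer2a, the low-affinity IgE receptor, at 1.42, 19.4 and 40.5 TPM. The 20 members of the B cell and follicle list summed to 98.1, 837 and 1053 TPM. All 19 measured for spread were past 2-fold and lowest in control 1, against 5.9% of all genes, with a median ratio of 14.9. Cxcl13, the chemokine that draws B cells into follicles, stood at 11.3, 20.7 and 39.6 TPM, and Cr2, a complement receptor of B cells and follicular dendritic cells, at 0.293, 1.68 and 4.48 TPM. Control 2 and control 3 were closer to each other: with control 1 left out, 4 of 19 were past 2-fold.

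T cell and antigen presentation genes were ordered likewise. All 13 T cell genes measured were past 2-fold and lowest in control 1, and 1 was past 2-fold without it. Trbc2, a constant region of the T cell receptor, stood at 4.23, 21.3 and 16.5 TPM, Cd3e, a chain of the receptor complex, at 0.179, 0.755 and 1.38 TPM, Cd4 at 2.59, 5.104 and 5.71 TPM and Cd8a at 0.553, 2.41 and 2.64 TPM. Ccr7, the receptor that guides T cells and dendritic cells to lymphoid tissue, stood at 1.11, 23.8 and 16.2 TPM. All 7 general white blood cell genes were past 2-fold, among them Ptprc, the CD45 phosphatase, at 1.75, 3.67 and 6.07 TPM and Coro1a, an actin regulator, at 21.1, 97.6 and 126 TPM; without control 1 none was. Of 11 genes of MHC class II, 10 were past 2-fold, with Cd74, the invariant chain, at 301, 699 and 917 TPM and H2-Ab1 at 228, 444 and 626 TPM, and all 11 were lowest in control 1, which was the lowest library at any ratio for 22.8% of all genes. H2-DMb1 was the member under 2-fold, and without control 1, 1 was past it.

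Antibody genes were abundant. Igkc, the κ light chain constant region, stood at 1058, 2427 and 3410.0 TPM, Igha, the IgA heavy chain, at 454, 982 and 1259 TPM, and Jchain, which joins IgA into dimers, at 79.1, 122 and 139 TPM. Ighg1 stood at 50.6, 41.6 and 110.4 TPM, and Ighg2b at 0.205, 11.2 and 2.54 TPM, the widest of the 10 measured, of which 9 were past 2-fold. Without control 1 there were 5. Macrophage genes were closer together, with 8 of 15 past 2-fold and 2 left without control 1 or without control 3. Lyz2, the lysozyme of phagocytes, stood at 229, 465 and 578 TPM, C1qa, a complement chain, at 114, 140.2 and 188 TPM, Csf1r, the growth factor receptor, at 9.38, 12.04 and 23.5 TPM, and Adgre1, which encodes F4/80, at 3.62, 4.65 and 5.07 TPM.

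Several cytokine and granulocyte genes were at the floor. Il17a and Il22, cytokines of type 17 lymphocytes, had 0 counts in all 3 libraries. Il23r, a receptor on them, had a mean of 0.2303 TPM. Of 10 neutrophil genes, Cxcr2, Elane and Ngp had 0 counts, and S100a8 and S100a9, the calprotectin chains, had means of 0.0778 and 0.117 TPM. Ly6g, which marks neutrophils in flow cytometry, nevertheless stood at 97.9, 498 and 436 TPM, so that its level did not go with the other 9. The mast cell protease genes Mcpt1 and Mcpt2 had means of 1.45 and 1.33 TPM, and the eosinophil peroxidase gene Epx 0.0223 TPM.

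**Figure D4:**
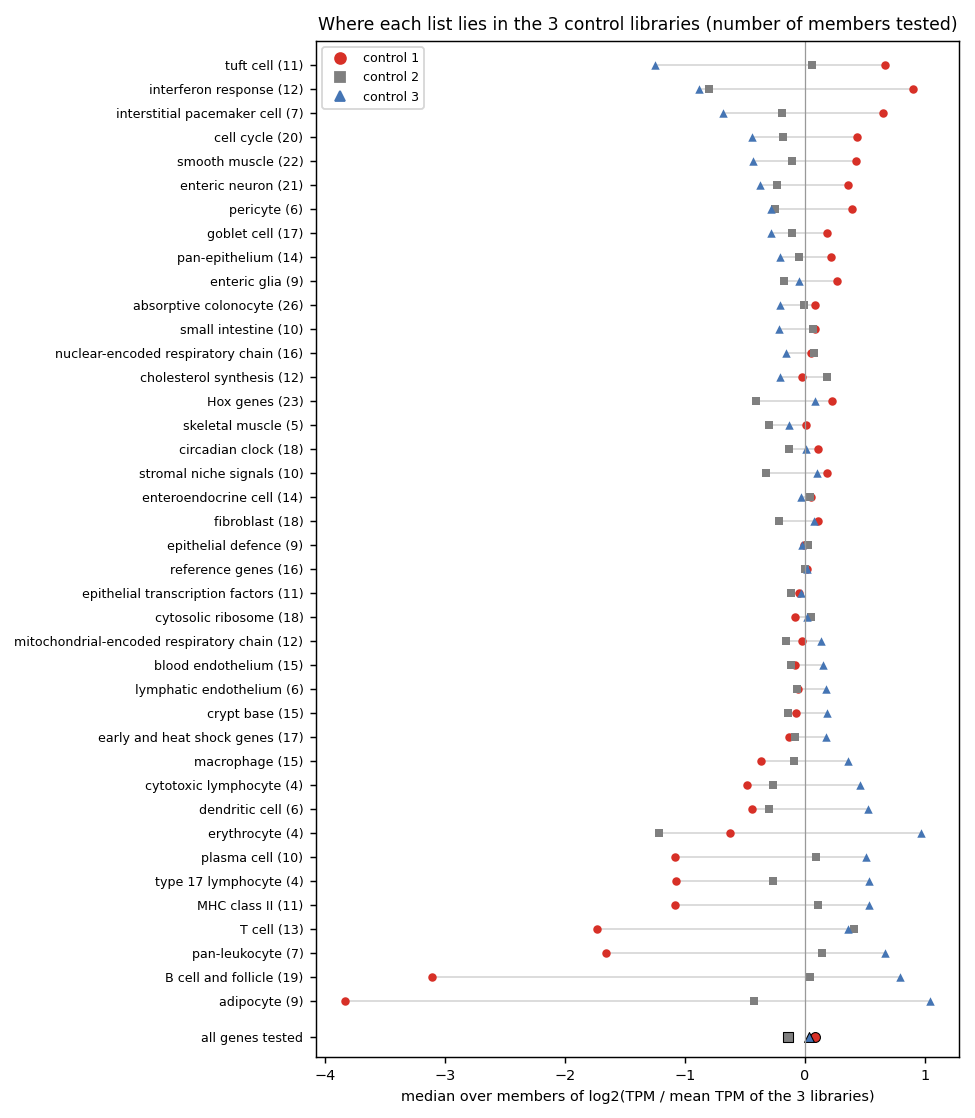
Median over list members of log2(TPM over the mean of the 3 libraries), on the horizontal axis, for each list with at least 4 members measured; circles are control 1, squares control 2 and triangles control 3, with all 14426 genes at the foot. Control 1 lies lowest for the adipocyte, B cell, T cell and white blood cell lists and highest for the tuft cell, interferon, cell cycle and smooth muscle lists, and the libraries are close together for ribosomal and reference genes.

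Markers of tissue outside the colon wall were looked for too. Adipocyte genes summed to 45.9, 222 and 652 TPM, with 8 of 9 measured past 2-fold and a median ratio of 33.5. Cfd, adipsin, had 4, 677 and 2349 counts, or 0.794, 119 and 422 TPM, Adipoq, adiponectin, had 1, 96 and 270 counts, or 0.133, 11.3 and 32.4 TPM, and Plin1, the coat protein of fat droplets, had 2, 72 and 170 counts. Without control 3, 5 were past 2-fold. Cyp2e1, a cytochrome named by its ratio among all genes, was ordered in the same way at 0.339, 14.4 and 56.6 TPM. Of 5 red blood cell genes, the 4 globin genes were past 2-fold and highest in control 3, with Hbb-bs at 23.1, 14.4 and 62.8 TPM, and none was without it. Globin genes are near-identical copies, so reads may be split between them. Msln, a mesothelial protein of the outer surface, stood at 6.27, 3.49 and 3.14 TPM. Pancreatic enzyme genes Cpa1, Pnlip and Cela3b had 0 counts, and Clps, colipase, stood at 17.4, 5.04 and 19.3 TPM. Krt5 and Trp63, which mark squamous epithelium, had means of 0.324 and 0.0129 TPM, while Ly6d, a surface protein shared by squamous and B cells, stood at 4.67, 43.6 and 44.8 TPM. Where lymphoid, fat, muscle or globin genes differ between the libraries, the part that unequal amounts of follicle, fat, muscle or blood in the samples have in other differences was not tested.

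Some genes that mark position along the gut differed widely between control 1 and control 3, in both directions. Hox genes encode homeobox regulators that lie in 4 clusters, and those with higher numbers are active towards the rear of the body. Hoxb13 was the highest of the 39 at 321, 833 and 1204 TPM, and Hoxd13 stood at 7.66, 18.7 and 233 TPM, a ratio of 30.4 (95% counting interval 25.04 to 37.4). Hoxd11 stood at 0.304, 1.65 and 11.96 TPM, Hoxd12 at 0.289, 2.05 and 5.69 TPM, Hoxd10 at 1.61, 1.695 and 9.13 TPM and Hoxd9 at 1.29, 1.97 and 14.1 TPM. These 6 were past 2-fold and highest in control 3, against 8.95% of all genes. Hoxd8 was level at 2.600, 2.42 and 2.84 TPM. In the A cluster, Hoxa13 stood at 72.5, 62.5 and 56.7 TPM, Hoxa10 at 60.6, 43.9 and 38.4 TPM and Hoxa5 at 49.3, 27.9 and 39.03 TPM. Hoxa11, Hoxb3, Hoxb4 and Hoxb8 were past 2-fold with control 1 highest, so that 10 of 23 members measured were past 2-fold in all, and with TMM 9. At any ratio, 15 of the 23 were highest in control 1 and 8 in control 3, against 49.4% and 40.8% of all genes. With TMM it was 13 and 8, against 35.6% and 34.1%. Members past 2-fold numbered 6 without control 1, 7 without control 2 and 6 without control 3. Of the C cluster, Hoxc9, Hoxc10, Hoxc11, Hoxc12 and Hoxc13 had 0 counts in all 3 libraries, as did Hoxb1 and Hoxd1, and Hoxc4 had a mean of 1.05 TPM.

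The genes with the widest ratios over the whole table came from several of the lists and from outside them. Fxyd4, a regulator of the sodium pump, had 3, 1518 and 5285 counts, or 0.2804, 126 and 448 TPM, a ratio of 1596 whose counting interval ran from 546 to 7742 because of the 3 counts in control 1. Casp14, a caspase of cornifying epithelia, stood at 3.82, 83.4 and 172 TPM. Both were highest in control 3, as were Cfd, Car3, Cyp2e1, Hoxd13 and Fcer2a, described above or in the same lists, and CT010467.1. Highest in control 1 were Apol10a, an apolipoprotein L gene, at 199, 11.9 and 0.383 TPM, H2-T3, a non-classical MHC class I gene of the intestinal epithelium, at 58.1, 7.603 and 0.243 TPM, and B3gnt6, the enzyme that builds the core 3 sugars of mucins, at 37.3, 2.53 and 0.419 TPM. Alpi, the intestinal alkaline phosphatase, stood at 63.6, 13.9 and 0.7802 TPM and Tmigd1, an adhesion protein of the brush border, at 119.8, 28.4 and 2.11 TPM. In these 5 control 2 lay between control 1 and control 3. Slc9a3, Isx and Ang4, given above, completed the 8 widest genes of control 1.

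Markers of the small intestine were measured beside them. Fabp6, the bile acid carrier of the ileum, was level at 16.04, 20.6 and 19.03 TPM, and Slc10a2, the bile acid transporter, stood at 23.2, 7.02 and 7.19 TPM. Rbp2 and Slc5a1, carriers of retinol and of glucose, were level at 161, 198 and 193 TPM and 150.1, 161 and 161 TPM. Lct and Sis, the disaccharidases, and Fabp1 had means of 0.0638, 0.0376 and 0.208 TPM, and the Paneth cell defensins Defa17 and Defa24 had 0 counts. Lyz1, a lysozyme of Paneth cells, stood at 13.5, 41.6 and 56.96 TPM, low in control 1 as Lyz2 was. Of 10 measured, 5 were past 2-fold, and without control 1 there were 2. The labels do not give the stretch of colon, and whether it differed between the libraries was not tested.

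**Figure D5:**
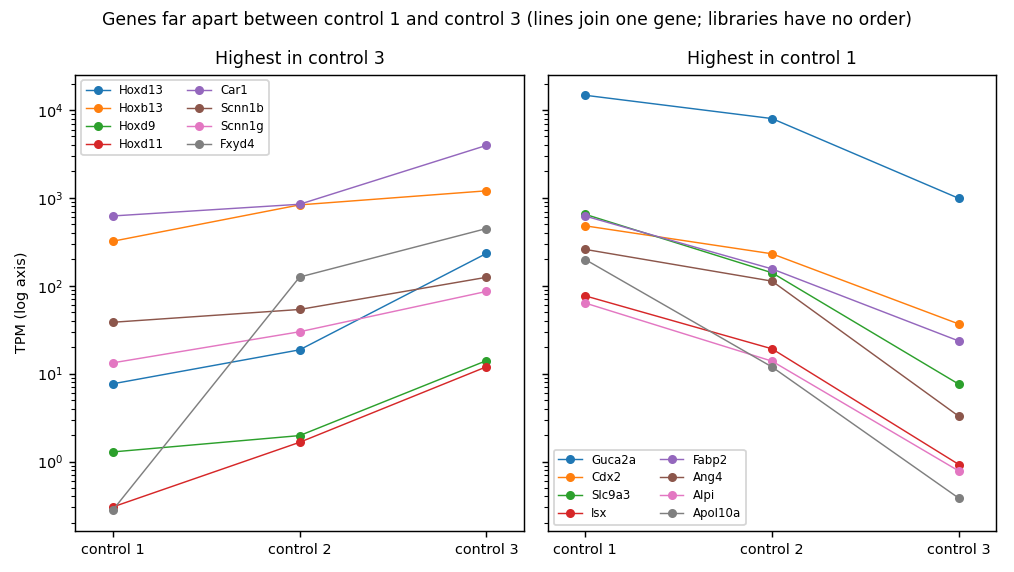
TPM (vertical log axis) of 16 genes in control 1, control 2 and control 3, chosen after their values were seen to show genes far apart between control 1 and control 3; lines join the points of a gene and imply no order of the libraries. On the left, genes highest in control 3, from Hoxd11 at 0.304, 1.65 and 11.96 TPM to Car1 at 623, 847 and 3956 TPM; on the right, genes highest in control 1, with control 2 between the others for each of the 16.

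Interferon-stimulated genes stood out in control 1. Interferons act through receptors that activate STAT proteins, and the complex that answers type I interferon binds a pair of GAAA half-sites in the promoters of its targets. Isg15, a ubiquitin-like modifier, stood at 91.2, 7.501 and 7.45 TPM, a ratio of 12.2 (95% counting interval 8.61 to 17.9). Ifit1 and Ifit3, which bind foreign RNA, stood at 32.4, 2.99 and 0.874 TPM and 18.97, 6.13 and 4.56 TPM. Usp18, which removes Isg15 from proteins, stood at 7.28, 0.523 and 1.66 TPM, Oasl2, a member of the oligoadenylate synthetase family, at 51.2, 6.71 and 4.37 TPM, and Irf7, the factor that amplifies the response, at 109, 37.9 and 33.4 TPM. Bst2, the tether of budding viruses, was the most abundant and the exception, at 85.5, 73.6 and 99.9 TPM. Of 12 members measured, 11 were highest in control 1, also with TMM, against 49.4% of all genes and 35.6% with TMM. On the TPM scale 9 were past 2-fold, all highest in control 1, or 8 with TMM. Without control 1, 2 were past 2-fold. Control 1 was also the library with the lowest sums over the B cell, T cell and MHC class II lists, the last at 855, 1804 and 2411 TPM.

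The promoters of these genes are shown because Isg15, Ifit1 and Ifit3 were high in control 1 while Bst2 was not. They are RefSeq windows on GRCm38.p6 of 300 bases, 250 before to 50 after the start, of which the 250 before it are printed, 5′ to 3′ on the gene's strand. Capitals mark GAAANNGAAA, the paired half-site with any 2 bases between, or its reverse complement TTTCNNTTTC, and overlapping matches run together. The printed windows are chr4:156200819-156201068 on the minus strand for Isg15, chr19:34640639-34640888 on the plus strand for Ifit1, chr19:34583279-34583528 on the plus strand for Ifit3 and chr8:71537473-71537722 on the minus strand for Bst2.
Isg15: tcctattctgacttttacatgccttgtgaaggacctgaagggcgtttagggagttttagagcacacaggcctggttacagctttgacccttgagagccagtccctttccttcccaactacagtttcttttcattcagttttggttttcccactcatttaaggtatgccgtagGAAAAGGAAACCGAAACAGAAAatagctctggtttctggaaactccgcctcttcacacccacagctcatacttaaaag
Ifit1: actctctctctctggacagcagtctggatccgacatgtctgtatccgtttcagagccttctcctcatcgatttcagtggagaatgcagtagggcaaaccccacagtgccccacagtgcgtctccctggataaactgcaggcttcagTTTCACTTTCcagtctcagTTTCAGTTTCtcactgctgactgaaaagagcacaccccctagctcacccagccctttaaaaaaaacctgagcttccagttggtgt
Ifit3: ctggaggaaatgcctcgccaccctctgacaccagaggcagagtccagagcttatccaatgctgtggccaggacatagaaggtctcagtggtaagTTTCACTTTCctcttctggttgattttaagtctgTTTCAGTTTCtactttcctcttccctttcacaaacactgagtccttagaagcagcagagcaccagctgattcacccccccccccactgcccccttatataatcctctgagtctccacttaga
Bst2: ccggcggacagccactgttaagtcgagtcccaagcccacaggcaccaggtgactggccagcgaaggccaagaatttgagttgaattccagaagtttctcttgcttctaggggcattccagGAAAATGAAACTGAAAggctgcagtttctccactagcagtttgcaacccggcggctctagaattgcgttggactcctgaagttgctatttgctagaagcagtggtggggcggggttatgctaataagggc
Of the 13 interferon genes, 9 had a window, and the motif was found on either strand in 6 of them (Bst2, Gbp2, Ifit1, Ifit3, Irgm1 and Isg15), against 3.44% of all 32851 windows of the same length. Isg15 holds 3 overlapping matches and the others shown 2 each. A match is a description of the sequence and not a binding site. The list was made of known interferon-stimulated genes, so a share above that of all windows was likely beforehand. It says nothing about the libraries.

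Ribosomal and a few other RNAs were low in control 1 in a way that cut across the compartments. mt-Rnr1 and mt-Rnr2, the ribosomal RNAs of mitochondria, stood at 60.3, 2105 and 1618 TPM and 75.4, 2277 and 1909 TPM, ratios of 34.9 and 30.2. CT010467.1, annotated as ribosomal RNA on chromosome 17, stood at 3.12, 184 and 296 TPM. Hsp90aa1, the inducible chaperone, stood at 6.47, 123 and 121 TPM, while Hspa8 and Hspa1b, other heat shock genes, stood at 583, 657 and 680.3 TPM and 85.9, 84.5 and 71.8 TPM. Rpl12, a ribosomal protein gene chosen after its value was seen, stood at 29.7, 509 and 576 TPM, although none of the 18 ribosomal protein genes listed was past 2-fold and their median ratio was 1.12. Of 12 messenger RNAs of mitochondrial DNA measured, 3 were past 2-fold, each with another library lowest: mt-Atp8 at 33.2, 38.9 and 174 TPM was lowest in control 1, mt-Nd3 at 83.6, 39.6 and 96.7 TPM in control 2 and mt-Co2 at 141, 127 and 39.01 TPM in control 3. The abundant members mt-Cytb and mt-Nd1 lay at 13501, 12887 and 14743 TPM and 11298, 10509.5 and 10011 TPM. Levels of mt-Co2, mt-Co3 and mt-Atp6, at means of 102, 19.7 and 28.2 TPM, are uncertain, because near-identical copies lie in the nuclear genome and reads can be split between them.

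The remaining widest genes of control 2 were lymphoid. Among them Pax5, Cd79b, Ltb and Ptprcap were ordered alike, with control 2 and control 3 together and control 1 low. Ptprcap, an adaptor of CD45, shares all of its exon bases with another gene, which leaves its level uncertain. Only 0.957% of genes measured were past 2-fold with control 2 highest.

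At the other end, some genes hardly differed. Sys1, a Golgi trafficking gene, lay at 14.4, 14.4 and 14.4 TPM, a CV of 0.194%, Kmt5a, a histone H4 methyltransferase, at 109, 109.7 and 109.8 TPM, and Carhsp1, an RNA-binding protein, at 131, 131 and 131 TPM. Tuba1b, a tubulin, Bckdk, a kinase of branched-chain amino acid breakdown, Ttll5, a tubulin glutamylase, Ccny, a cyclin, and Rpl7, a ribosomal protein, completed the 8 smallest CVs, all under those that their counts alone would give on average. Of genes often used as references, Ppia at 532, 503 and 535 TPM and Tpt1 at 1545, 1639 and 1581 TPM were among the most even, and none of the 16 was past 2-fold. Actb lay at 2415, 2378 and 2123 TPM and Gapdh at 1553, 1906 and 1686 TPM, while B2m, the light chain of MHC class I, stood at 2073, 1867 and 1217 TPM. Rpl13a, at 20.6, 13.9 and 13.3 TPM, shares 35.4% of its exon bases with other genes and has many processed copies, so its level is uncertain. Cholesterol synthesis genes had none of 12 past 2-fold, and nuclear respiratory chain genes none of 16, with Atp5b at 1672, 1692 and 1446 TPM.

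Genes that follow the hour or handling were read last. Of 18 circadian clock genes, 3 were past 2-fold, Dbp at 43.7, 55.4 and 25.3 TPM, Ciart at 8.25, 7.53 and 3.96 TPM and Hlf at 4.49, 3.08 and 1.59 TPM, all lowest in control 3, where 5.84% of all genes were past 2-fold with that library lowest, and none was past it without control 3. Arntl, the clock activator, lay at 17.4, 13.5 and 19.7 TPM, Nr1d1, its repressor, at 120.4, 130.2 and 161 TPM and Per2 at 19.2, 18.8 and 15.8 TPM. Of the early response genes, Fos stood at 163, 113 and 192 TPM, Egr1 at 13.8, 14.02 and 37.9 TPM and Nr4a1 at 19.5, 12.9 and 34.8 TPM. Egr1, Nr4a1, Fosb and Hsp90aa1 were the 4 of 17 past 2-fold, with 2 left without control 1 and 1 without control 3.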

How the data were processed

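The authors deposited 1 table of raw read counts, with a row for each of 52636 Ensembl genes. DESeq 1.18.0, HTSeq 6.1 (as the version is written) and TopHat2 2.0.12 stand in the submitters' processing notes, with mm10 as the build. Which annotation release, strand setting or filter was used is not given in the sources used here. Per the labels' protocols the NEBNext Ultra RNA kit was used, which does not mark strand, so overlapping genes on opposite strands cannot be told apart. Only the 3 control columns were used, apart from the check of Xist and Y-linked genes.

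Identifiers were matched to GENCODE M21 (GRCm38): 52489 were found, and the other 147 held 0.00375% of the control counts and were left out of TPM. TPM used the summed length of all exons of a gene. Spread was read for genes with a mean of at least 1 CPM, as highest over lowest TPM, with at least 2 as the threshold and 95% exact intervals that cover counting error only; a count of 0 was replaced by 3 counts, which makes the ratio a lower bound. A gene with 3 counts or fewer in its highest library has no ratio. Genes overlapping others were measured by shared exon bases. The common biological coefficient of variation came from edgeR 4.0.16 with TMM factors and an intercept alone, in R 4.3.3, and was tested on simulated data; DESeq2 1.42.0 gave alternative factors. Figures used matplotlib 3.10.9 in Python 3.11.15. Promoters came from RefSeq windows of GRCm38.p6.

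The genes named are the 20 highest nuclear protein-coding genes and the 5 highest entries in the annotation's long non-coding classes. Named too are, for each library, the 8 genes of at least 10 CPM with the largest ratio, and the 8 smallest CVs. In each list the 4 highest members, the widest and those at 0 are named. All members of the defence, smooth muscle and sex check lists are named. Predicted and Rik genes, genes of a pseudogene class and the variable segments of antibodies and T cell receptors do not enter the rankings. Tmem250-ps, a pseudogene by its name, is classed as a long intergenic RNA in the annotation and was kept. Other list members were named after their values were seen. Some genes that this rule names are not reported here. The lists, the rule and the members were chosen with earlier results of these data known. Alternatives were other lengths, scalings, filters and thresholds, and each library left out in turn; leaving out genes that share at least 50% of their exon bases or have under 200 exon bases, and protein-coding genes alone for the spread, were added after seeing the data.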

Additional observations from a re-analysis of the deposited data

How the results depend on the processing

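The 15145 genes with a mean of at least 1 TPM ranged from 10639 to 17021 over the other thresholds, lengths, thinning and left-out libraries tried, all within 1.5 times. The share of the 10 most abundant genes, 11.6% as a mean of the libraries, was 8.93% without mitochondrial-encoded genes, 6.53% of raw counts with no length correction and 9.91% with the longest transcript as length; without each control it ran from 11.5% to 11.8%. Genes past 2-fold numbered 2806, and 1366 of 11354 with a mean of at least 5 CPM, 5409 of 18838 with 1 count in every library as the sole filter, 6169 at a ratio of at least 1.5 and 652 at a ratio of at least 4; leaving out each control gave 1124 to 1957, since a ratio over fewer libraries is smaller by construction. TMM, DESeq2 and upper-quartile factors gave 2470, 2463 and 2482. The common biological coefficient of variation of 0.285 ran from 0.224 without control 1 to 0.356 without control 2, and its other alternatives from 0.234 to 0.291. The number of lists with a median of at least 10 TPM was 27, and 25 to 28 under every alternative tried. The library in which most members were highest changed under TMM for 4 of 46 lists (enteroendocrine cell, small intestine, reference and circadian clock genes), and that in which most were lowest for 4 (crypt base, enteric glia, mitochondrial-encoded and circadian clock genes). Genes at 1 to 5 CPM are limited by depth. No paired analysis was possible because the libraries form a single group.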
